A study of Mus musculus with 9 samples.

Results

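The genes described here are 8 transcripts characteristic of neutrophils, measured in mouse liver: the calgranulins S100a8 and S100a9, and the granule genes Camp, Ngp, Ltf, Mmp8, Mpo and Elane. They were taken by gene symbol, and all 8 were found, each with 1 probe set that the array annotation pairs with that gene alone, among 32801 probe sets of 17514 genes. Liver RNA came from c57Bl/6 mice, kept on chow until the study, that received either a control diet (4 arrays, composition not given in the labels) or a high-fat diet from Harlan-Teklad (HFD, 5 arrays) with 21% fat supplying 42% of calories. Total RNA was amplified, biotin labelled and hybridised to Affymetrix GeneChip arrays. Sex, age, duration of feeding and batch are absent from the labels, as is any statement that the arrays come from different animals. The p-values therefore measure only how far these arrays spread, which may be technical.

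Every value is a log2 difference from a baseline that the authors set for each probe set, and every difference is HFD minus control on that scale, followed by its standard error from the limma fit. The baseline removes absolute levels. It therefore cannot be read from these values whether a granule transcript was detected at all, or whether liver markers were high. Whole liver was sampled, so that fewer neutrophils, less RNA per neutrophil and changes in other cells that hold these transcripts cannot be told apart.

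Neutrophils are short-lived white blood cells that leave the bone marrow, circulate and enter tissues, and the liver sinusoids hold some of them even without inflammation. They fill their granules in order while they mature in the marrow. Azurophil granules with myeloperoxidase and elastase are made first, then specific granules with lactoferrin and cathelicidin, then gelatinase granules, and transcription of most granule genes has ended in the circulating cell. S100A8 and S100A9 form the calcium- and zinc-binding heterodimer calprotectin, which is very abundant in the cytosol of mature neutrophils, is also made by monocytes, and signals through Toll-like receptor 4 when released.

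In RefSeq (GRCm38.p6) S100a8 and S100a9 are adjacent in the cluster of S100 genes, with 0 annotated genes between them. Their 250 bases before the start are shown because these transcripts moved together, and those of Ngp because it is a granule gene that did not follow them. Capitals mark matches, on either strand, to TTGCNNAA (the core bound by C/EBP factors), GAGGAA (the core bound by PU.1) and TATAAA (the TATA box).
S100a8, chr3:90668821-90669070, plus strand: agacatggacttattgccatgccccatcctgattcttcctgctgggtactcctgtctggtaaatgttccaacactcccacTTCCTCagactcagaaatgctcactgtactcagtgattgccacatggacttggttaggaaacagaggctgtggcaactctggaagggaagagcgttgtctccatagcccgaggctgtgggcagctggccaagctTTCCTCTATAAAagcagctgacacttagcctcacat
S100a9, chr3:90695722-90695971, minus strand: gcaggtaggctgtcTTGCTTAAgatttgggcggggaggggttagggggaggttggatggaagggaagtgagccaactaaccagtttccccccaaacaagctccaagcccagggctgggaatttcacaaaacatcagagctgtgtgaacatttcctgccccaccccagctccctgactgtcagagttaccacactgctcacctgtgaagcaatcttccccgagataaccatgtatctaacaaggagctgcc
Ngp, chr9:110419558-110419807, plus strand: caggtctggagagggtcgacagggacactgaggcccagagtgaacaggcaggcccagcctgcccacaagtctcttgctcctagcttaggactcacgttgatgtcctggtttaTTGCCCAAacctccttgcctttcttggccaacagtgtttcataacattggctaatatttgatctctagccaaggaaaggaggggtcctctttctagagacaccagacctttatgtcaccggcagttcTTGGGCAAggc

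The S100a8 window held a TATA box from 30 to 25 bases before the start, directly after a PU.1 match (36 to 31 bases before the start), and a further PU.1 match 170 to 165 bases before the start. The S100a9 window held 1 C/EBP match, 236 to 229 bases before the start. The Ngp window held 2 C/EBP matches. Over all 8 genes a C/EBP match was present in 4 windows, a PU.1 match in 5 and a TATA box in 1, against 9.56%, 23.3% and 12.4% of the 32851 promoter windows of this length in the table. These matches are letters in a sequence, and none of them was measured as a bound site.

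Both calgranulins were lower on every HFD array than on any control array, whereas the 6 granule genes lay between -0.29 and 0.27 on all 9 arrays. S100a9 fell by 1.97 ± 0.45 on the log2 scale (3.92-fold, adjusted p = 0.0337 by limma), and S100a8, which carries the other calprotectin subunit, differed by -2.04 ± 0.56 (4.12-fold lower) without passing over all genes (adjusted p = 0.0638). Thus 1 of the 8 genes fell and 0 rose, against 1.87% of all genes lower and 3.37% higher in the same fit (5.24% in either direction). At an unadjusted p under 0.05 in limma, 4 of the 8 were lower and 0 higher, against 8.78% of all genes lower and 19.1% in either direction. Control and HFD arrays were fully separated for 3 of the 8, S100a8, S100a9 and Camp, against 4.2% of all genes with HFD wholly below control and 5.62% with HFD wholly above.

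S100a8 stood at 1.05, 0.08, 0.38 and 0.91 in control replicates 1 to 4 and at -3.51, -1.60, -1.14, -0.08 and -0.86 in HFD replicates 1 to 5. HFD replicate 1 was by far the lowest array, and HFD replicate 4 lay just below the lowest control. The control arrays averaged 0.61 ± 0.45 (SD, n = 4) and the HFD arrays -1.44 ± 1.28 (SD, n = 5), so that the HFD arrays spread more widely than the controls. Its probe set has a name ending in _s_at and may also bind related transcripts.

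S100a9 stood at 1.28, 0.28, 0.47 and 0.60 in control replicates 1 to 4 and at -3.00, -1.32, -1.07, -0.28 and -0.88 in HFD replicates 1 to 5. The same HFD arrays were lowest and highest as for S100a8. The control mean was 0.66 ± 0.44 (SD, n = 4) and the HFD mean was -1.31 ± 1.02 (SD, n = 5). The 95% interval of the difference ran from -2.97 to -0.97, against -3.28 to -0.81 for S100a8.

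Single arrays decided which calgranulin passed. Without HFD replicate 1 the differences shrank to -1.53 for S100a8 (adjusted p = 0.0287 by limma) and -1.55 for S100a9 (adjusted p = 0.0129), while their standard errors shrank to 0.32 and 0.26, and both passed. Without HFD replicate 4 both passed too (S100a8 at -2.38, adjusted p = 0.0283). S100a9 was no longer called without any 1 of the 4 control arrays, HFD replicate 2 or HFD replicate 3 (adjusted p from 0.0636 to 0.0915), while its difference stayed between -2.23 and -1.55 whichever array was left out.

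**Figure D1:**
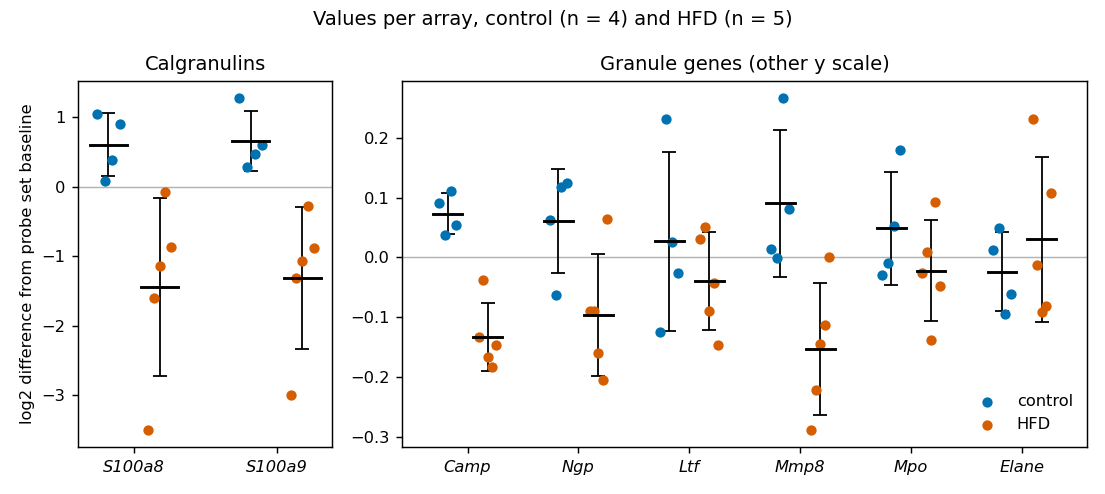
Log2 difference from the probe set baseline (y axis, a wider scale on the left than on the right) for each of the 8 genes in the 4 control arrays (blue) and 5 HFD arrays (orange), with the mean (thick bar) and SD (thin bar). The calgranulins run from -3.51 to 1.28 and do not overlap between the groups, whereas the granule genes stay between -0.29 and 0.27.

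Among genes of the specific granules, Camp, which encodes the cathelicidin antimicrobial peptide, stood at 0.09, 0.04, 0.11 and 0.05 in control replicates 1 to 4 and at -0.13, -0.04, -0.17, -0.18 and -0.15 in HFD replicates 1 to 5. The groups did not overlap, but the difference was small (-0.21 ± 0.07, 1.15-fold, adjusted p = 0.135 by limma, 95% interval -0.36 to -0.05). Ngp, neutrophilic granule protein, a relative of the cathelicidins, stood between -0.06 and 0.12 in control and between -0.20 and 0.06 in HFD, where replicate 5 lay among the controls (-0.16 ± 0.08, adjusted p = 0.355). Ltf, which encodes the iron-binding lactoferrin, ranged from -0.12 to 0.23 in control and from -0.15 to 0.05 in HFD (-0.07 ± 0.09, adjusted p = 0.758). For Ltf the groups overlapped, apart from the highest control array and the lowest HFD array.

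Mmp8, the neutrophil collagenase, stood at 0.01, -0.0009, 0.27 and 0.08 in control replicates 1 to 4 and at -0.29, -0.22, -0.14, -0.11 and 0.0009 in HFD replicates 1 to 5. Only HFD replicate 5 reached the controls, and the difference was -0.24 ± 0.09 (1.18-fold, adjusted p = 0.171 by limma). Of the azurophil granule genes, Mpo, the myeloperoxidase that makes hypochlorous acid, ranged from -0.03 to 0.18 in control and from -0.14 to 0.09 in HFD (-0.07 ± 0.08, adjusted p = 0.702). Elane, the neutrophil elastase, ranged from -0.10 to 0.05 in control and from -0.09 to 0.23 in HFD (0.05 ± 0.09, adjusted p = 0.805), and was highest in HFD replicate 1, the array with the lowest calgranulins.

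No granule gene of the 6 passed in limma, and 2 of them (Camp and Mmp8) were lower at an unadjusted p under 0.05, against 8.78% of all genes. Their differences ran from -0.24 to 0.05 with a median of -0.11, against -0.02 over all genes, and 5 of 6 were below 0. The mean of the 6 genes lay between 0.0047 and 0.08 on the control arrays and between -0.13 and -0.03 on the HFD arrays. The wider end of the 95% intervals was -0.45 for Mmp8 and -0.36 for Camp, so that measured changes of the size seen for the calgranulins lay outside them. These intervals hold for the probe set values only. A probe set that did not detect its transcript would also stay near 0, and detection cannot be read from these values. The calgranulins were among the most variable genes and the granule genes varied less than most. The SD over the 9 arrays was 1.43 for S100a8 and 1.29 for S100a9, above that of 99.8% and 99.7% of all genes, and between 0.09 (Mpo) and 0.17 (Mmp8) for the granule genes, below the median gene (0.19).

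S100a8 and S100a9 followed each other array by array. Pearson's r over the 9 arrays was 0.989 (exact permutation p = 2.76e-06, the smallest these arrays can give, adjusted p = 3.58e-05 over 13 pairs) and Spearman's rho was 1.00 (exact permutation p = 5.51e-06, adjusted p = 7.16e-05). Without HFD replicates 1 and 2, the arrays farthest from the median of S100a8, r was 0.971. After each group's mean was subtracted r was 0.980 (exact permutation within groups, p = 0.000347, the smallest possible, adjusted p = 0.00451), so that the relation held inside the groups. S100a8 minus S100a9 stayed between -0.50 and 0.31 while each gene moved over more than 4 units, and this quantity differed by -0.08 between the groups, less than its SD in either (0.25 and 0.27).

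The calgranulins were next set against each granule gene over the 9 arrays. Although the groups did not overlap, the gap between them was only 0.16 for S100a8 and 0.57 for S100a9. The largest gap inside the HFD group, between replicates 1 and 2, was wider (1.91 and 1.68). Pooled correlations also take in the difference between the groups, and are therefore given with those inside the groups. Mmp8 had the highest r, 0.786 with S100a8 (exact permutation p = 0.0121, adjusted p = 0.0567) and 0.783 with S100a9 (exact permutation p = 0.0131, adjusted p = 0.0567). By rank both pairs gave a rho of 0.883 (exact permutation p = 0.00308, adjusted p = 0.0133). Inside the groups r fell to 0.499 (exact permutation p = 0.182) and 0.441 (exact permutation p = 0.252), neither past the threshold (adjusted p = 0.393 and 0.468). These values pool both groups, whose signs differed. Within the control arrays r was -0.167 and -0.287, and within the HFD arrays it was 0.775 and 0.756. The 2 arrays farthest from the median were HFD replicates 1 and 2 for S100a8, but control replicate 1 and HFD replicate 1 for S100a9. Without these arrays r was 0.534 with S100a8 and 0.798 with S100a9, so that the first relation weakened without HFD replicates 1 and 2. The 2 values rest on different sets of arrays and do not compare the calgranulins, which holds for each granule gene below.

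Camp had an r of 0.628 with S100a8 (exact permutation p = 0.0607, adjusted p = 0.131) and 0.703 with S100a9 (exact permutation p = 0.0307, adjusted p = 0.0998), and a rho of 0.650 with each (exact permutation p = 0.0666, adjusted p = 0.173). Without the 2 farthest arrays r was 0.821 and 0.709. Inside the groups the sign turned, to -0.257 and -0.169 (exact permutation p = 0.555 and 0.674), with a positive r within the 4 control arrays (0.284 and 0.434) and a negative one within the 5 HFD arrays (-0.346 and -0.284). Camp was lowest in HFD replicate 4, where the calgranulins were highest among HFD arrays.

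Ngp had an r of 0.498 and 0.517 with S100a8 and S100a9 (exact permutation p = 0.172 and 0.152, adjusted p = 0.249 and 0.247) and a rho of 0.60 (p = 0.0968, adjusted p = 0.18, exact permutation), and -0.022 and -0.064 inside the groups. Without the 2 farthest arrays its r was 0.549 and 0.537. Mpo had an r of 0.444 and 0.381 (exact permutation p = 0.229 and 0.309, adjusted p = 0.298 and 0.365), a rho of 0.333, and 0.226 and 0.093 inside the groups, with 0.657 and 0.676 without the 2 farthest arrays. Elane ran the other way, with an r of -0.650 and -0.599 (exact permutation p = 0.0582 and 0.0896, adjusted p = 0.131 and 0.166) that dropped to -0.122 and -0.222 without the 2 farthest arrays and a rho of -0.30. HFD replicate 1 is 1 of the 2 arrays left out for either calgranulin. Inside the groups the r of Elane was -0.713 and -0.677 (exact permutation p = 0.0913 and 0.115, adjusted p = 0.297 and 0.298), the furthest from 0 of any granule gene. Within the HFD arrays alone it was -0.782 and -0.802, against -0.193 and 0.133 within the control arrays. HFD replicate 1 held the highest Elane and the lowest calgranulins, and the r of Elane inside the groups without that array was not computed. Ltf had an r of -0.099 and -0.050 (exact permutation p = 0.783 and 0.895, adjusted p = 0.848 and 0.895), a rho of -0.250, and 0.182 and 0.405 without the 2 farthest arrays. Inside the groups its r was -0.524 and -0.522 (exact permutation p = 0.0628 and 0.074, adjusted p = 0.297). Of the 13 pairs only S100a8 with S100a9 passed by Pearson's r over the pooled arrays.

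**Figure D2:**
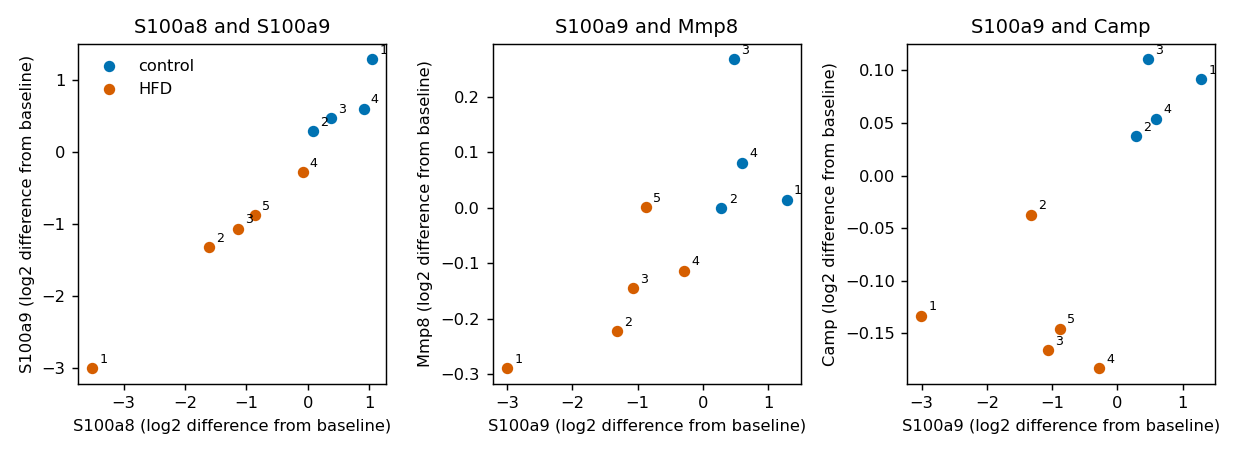
Each point is 1 array (control blue, HFD orange, replicate number beside it), and both axes are log2 differences from the baseline. S100a8 and S100a9 fall on 1 line (r = 0.989), Mmp8 (from -0.29 to 0.27) is lowest where S100a9 is lowest, and Camp separates the groups without following S100a9 inside them.

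Other genes of neutrophils were taken from lists of granule and surface genes. Of 29 measured genes outside the 8, 2 fell and 0 rose (limma), against 1.87% and 3.37% of all genes. The median difference of the 29 was -0.08 against -0.02 over all genes. Fpr2, a formyl peptide receptor that guides neutrophils and macrophages to bacterial and damage signals, fell by 0.75 ± 0.16 (adjusted p = 0.0230), and Alox5ap, needed for leukotriene synthesis in myeloid cells, fell by 0.87 ± 0.18 (adjusted p = 0.0219). Both are also expressed by macrophages. Without control replicate 1 or 2 the count was 0, and without HFD replicate 4 it was 6, with 5 without control replicate 4 and 1 without control replicate 3 or HFD replicate 3.

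Fpr2 stood at 0.64, 0.97, 0.40 and 0.10 in control replicates 1 to 4 and at -0.10, -0.10, -0.36, -0.20 and -0.36 in HFD replicates 1 to 5. The groups did not overlap, and unlike the calgranulins HFD replicate 1 was not the lowest array. In the list of mature neutrophil genes, 2 of 15 measured members (Fpr2 and Alox5ap) fell, against 1.87% of all genes. Il1b (-0.59 ± 0.17, adjusted p = 0.0774) and Trem1 (-0.22 ± 0.11, adjusted p = 0.330, with -0.035 for its other probe set) did not pass by limma. Il1b encodes interleukin-1 beta and Trem1 a receptor that amplifies inflammatory signals. Csf3r, the receptor for granulocyte colony-stimulating factor, and Cxcr2, a neutrophil chemokine receptor, were named after their values were seen. Csf3r differed by -0.08 ± 0.08 (adjusted p = 0.621 by limma) and Cxcr2 by -0.08 ± 0.10 (adjusted p = 0.695).

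The next counts include those of the 8 genes that belong to each list. Of the azurophil granule list 0 of 6 measured members passed in limma and 1 had an unadjusted p under 0.05 (1 of 4 without Mpo and Elane). Over all genes 8.78% were lower at that threshold. Ctsc, the dipeptidyl peptidase that activates granule serine proteases and is also made by macrophages, differed by -1.64 ± 0.44 (adjusted p = 0.0618) with one of its 3 probe sets and by as little as -0.13 with another. Ctsg, cathepsin G (0.07 ± 0.09), and Ms4a3, a gene of early granulocytes (-0.19 ± 0.13), did not pass. Of the specific granule list 0 of 9 passed and 3 had an unadjusted p under 0.05 (2 of 6 without Camp, Ngp and Ltf). Cyba and Cybb, which encode the membrane subunits of the NADPH oxidase of phagocytes, differed by -1.06 ± 0.29 (adjusted p = 0.0660) and -0.83 ± 0.22 (adjusted p = 0.0615). Of the gelatinase granule list 0 of 5 passed and 3 had an unadjusted p under 0.05 (2 of 4 without Mmp8). These 2 were Slc11a1, a metal transporter of phagosomes (-0.66 ± 0.20, adjusted p = 0.0952), and Adam8 (-0.26 ± 0.09, adjusted p = 0.128). Fcnb, a ficolin, differed by -0.01 ± 0.09.

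**Figure D3:**
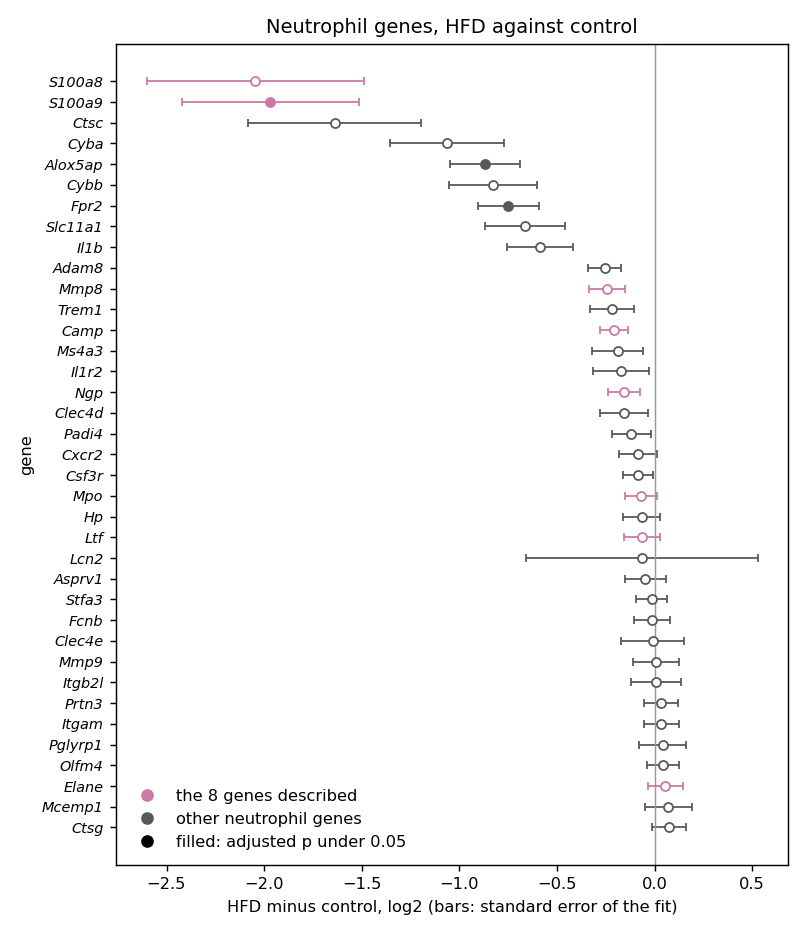
Difference HFD minus control on the log2 scale (x axis) and its standard error (bars) for the 8 genes described (pink) and the 29 other neutrophil genes (grey), filled where the adjusted p was under 0.05. S100a8 and S100a9 lie farthest to the left, S100a9, Alox5ap and Fpr2 are filled, and the granule genes described lie between -0.24 and 0.05.

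The calgranulins were set against the rest of the S100 family. Of 13 measured S100 genes 1 fell, S100a9, and 0 rose, against 1.87% and 3.37% of all genes. The 11 others differed by -0.13 to 0.75, with a median of 0.11, and 3 of them were below 0. S100a10, a partner of annexin A2, had the largest difference of these (0.75 ± 0.29, adjusted p = 0.186 by limma, 3 probe sets from 0.51 to 0.77), followed by S100a16 (0.24 ± 0.11, adjusted p = 0.267). The nearby genes S100a3, S100a4, S100a5 and S100a6 had differences of -0.08 ± 0.10, 0.04 ± 0.07, -0.11 ± 0.08 and 0.23 ± 0.20. All of them lie on the S100a8 side. S100a7a, which lies between them and S100a8, was not measured by a probe set of its own, and genes on the S100a9 side are not given. With every probe set tested on its own, 4.0% of 32801 passed, and S100a9 was again called (adjusted p = 0.0363 by limma) and S100a8 was not (adjusted p = 0.0697). In that setting 1 of the 3 probe sets of S100a10 was called higher (0.77 ± 0.18, adjusted p = 0.0418 by limma).

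Of 9 measured receptors and adaptors linked to extracellular calprotectin 1 rose and 0 fell, against 3.37% and 1.87% of all genes. The riser was Cd36, a scavenger receptor and fatty acid transporter (2.42 ± 0.29, adjusted p = 0.00187 by limma). Cd14, the co-receptor of Toll-like receptor 4, differed by -0.98 ± 0.28 (adjusted p = 0.0722), Tlr4 itself by -0.31 ± 0.11 (adjusted p = 0.162, 3 probe sets from -0.31 to 0.03) and Cd69 by 0.12 ± 0.09. Of 8 measured transcription factors of granulocyte development 0 passed, 3 were lower and 1 higher at an unadjusted p under 0.05 in limma. Over all genes 8.78% were lower at that threshold, and 19.1% passed it in either direction. Spi1, which encodes PU.1, differed by -0.39 ± 0.10 (adjusted p = 0.0599), Irf8 by -0.47 ± 0.14 (adjusted p = 0.0853), Stat3 by -0.78 ± 0.32 (adjusted p = 0.212, 4 probe sets from -0.78 to -0.01) and Cebpa by 0.44 ± 0.18 (adjusted p = 0.210). Of 7 measured genes of neutrophil recruitment 0 passed and 2 were lower at an unadjusted p under 0.05, against 8.78% of all genes. Cxcl1, a chemokine that draws neutrophils, stood at -0.46, 0.73, 4.19 and 2.79 in control replicates 1 to 4 and between -1.48 and 1.03 in HFD (-2.19 ± 0.87, adjusted p = 0.198, 3 probe sets from -2.19 to -0.67). Icam1, the endothelial adhesion molecule, differed by -0.47 ± 0.21 (adjusted p = 0.246), Selp by -0.08 ± 0.12 and Csf3 by -0.08 ± 0.13. The control array with the most Cxcl1 was replicate 3, and that with the most S100a9 was replicate 1.

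Markers of other liver cells were counted in the same fit, in which 1.87% of all genes fell and 3.37% rose. Of 11 Kupffer cell markers (resident liver macrophages) 8 fell and 0 rose (limma), with Timd4 (-1.16 ± 0.20) and Folr2 (-1.25 ± 0.22) at the lowest p. The mean of the list ranged from 0.21 to 1.44 in control and from -1.40 to 0.14 in HFD. The count of fallen markers was 3 without control replicate 1, 2 or 3 or HFD replicate 3, 4 without HFD replicate 2, 5 without HFD replicate 1 and 11 without control replicate 4. The list mean was lowest in HFD replicate 5 and stood at -0.35 in HFD replicate 1, which had the lowest calgranulins. Of 7 monocyte markers 2 fell, Lyz2 (-1.62 ± 0.30) and Plac8 (-1.19 ± 0.27), with list means from 0.05 to 0.32 in control and -0.38 to 0.01 in HFD. The monocyte list did not move as a whole, since 4 of the 7 were below 0, the median difference was -0.12 and the highest was 0.10. Of 7 endothelial markers 1 fell (Fcgr2b, -2.0 ± 0.44, with 4 probe sets reaching up to -0.97), beside Clec4g at -1.67 ± 0.45 (adjusted p = 0.0638, with -0.14 for its other probe set), with list means from 0.17 to 0.74 and from -1.32 to 0.33. Of 7 hepatocyte markers 1 fell (Hnf4a, -0.91 ± 0.19, with 4 probe sets from -0.91 to -0.14), and Tat differed by -0.79 ± 0.22. With 1 array left out, the count that fell ranged from 0 (control replicate 2) to 2 for the monocyte list and from 0 to 5 (HFD replicate 4) for the endothelial list. For the hepatocyte list it was 0 without control replicate 2, 3 or 4 or HFD replicate 3, and 1 otherwise. The part of these cells in the difference of the calgranulins was not tested.

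The lists for erythroid cells, platelets, B cells, T and NK cells, and mast cells with basophils and eosinophils held 29 measured markers. In limma 0 passed, and 2 were lower and 1 higher at an unadjusted p under 0.05. Over all genes 8.78% were lower at that threshold, and 19.1% passed it in either direction. The lowest p values in each list belonged to Alas2 (0.27 ± 0.10) and Hba-a2 (-0.09 ± 0.10), Pf4 (-0.13 ± 0.09) and Ppbp (0.09 ± 0.18), Ms4a1 (-0.31 ± 0.13) and Cd79b (0.10 ± 0.10), Gzma (-0.19 ± 0.09) and Cd4 (-0.16 ± 0.10), and Ccr3 (-0.21 ± 0.08) and Cpa3 (-0.14 ± 0.08). Differences over these 29 markers ran from -0.31 to 0.30.

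The genes whose values over the 9 arrays were most like the mean of S100a8 and S100a9 were found among 3613 genes with an SD of at least 0.3. In order of Pearson's r they were Rasgef1b (0.944), Igfbp1 (0.923), Trp53inp1 (0.904), Atg16l2 (0.891), Gadd45g (0.891), Sgk1 (0.886), Dhcr7 (0.886), Pmvk (0.881), Cebpd (0.879) and Frmd4b (0.874). The 8 genes described were left out of this ranking, and the 6 granule genes among them also fell short of that SD (0.09 to 0.17). Their absence from the 10 was therefore set in advance. Igfbp1 encodes an insulin-like growth factor binding protein that the liver secretes, Sgk1 a kinase, Gadd45g a stress response protein, Dhcr7 and Pmvk enzymes of cholesterol synthesis, and Cebpd a C/EBP transcription factor. Inside the groups, with each group's mean subtracted, r ranged from 0.696 (Dhcr7) to 0.914 (Igfbp1). These values describe 9 arrays and were chosen for being high. They pool the deviations of both groups, and r within each group alone was not computed. In control replicates 1 to 4 the calgranulin mean stood at 1.17, 0.18, 0.43 and 0.75. Of the 10 genes, only Rasgef1b, Atg16l2 and Frmd4b were likewise highest in control replicate 1. Cebpd was lowest there among the controls (0.07).

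Igfbp1 stood at 0.18, 0.24, 0.38 and 0.16 in control replicates 1 to 4 and at -3.19, -1.26, -0.44, -0.10 and -0.16 in HFD replicates 1 to 5. Cebpd stood at 0.07, 0.35, 0.80 and 0.24 and at -2.59, -1.04, -0.63, 0.80 and -0.07. Both were lowest in HFD replicate 1 and next lowest in HFD replicate 2, as were the calgranulins. Over the group comparison, Pmvk fell by 1.86 ± 0.20 (adjusted p = 0.00102 by limma) and Dhcr7 by 1.09 ± 0.26 (adjusted p = 0.0357), whereas Igfbp1 (-1.27 ± 0.54, adjusted p = 0.228) and Cebpd (-1.07 ± 0.53, adjusted p = 0.319, with -0.01 for its other probe set) did not pass. Rasgef1b (-1.05 ± 0.33), Trp53inp1 (-1.10 ± 0.45, other probe set -0.47), Atg16l2 (-0.74 ± 0.24, other probe set -0.33), Gadd45g (-1.06 ± 0.53), Sgk1 (-1.05 ± 0.42) and Frmd4b (-0.69 ± 0.36, with probe sets from -0.69 to 0.81) did not pass.

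**Figure D4:**
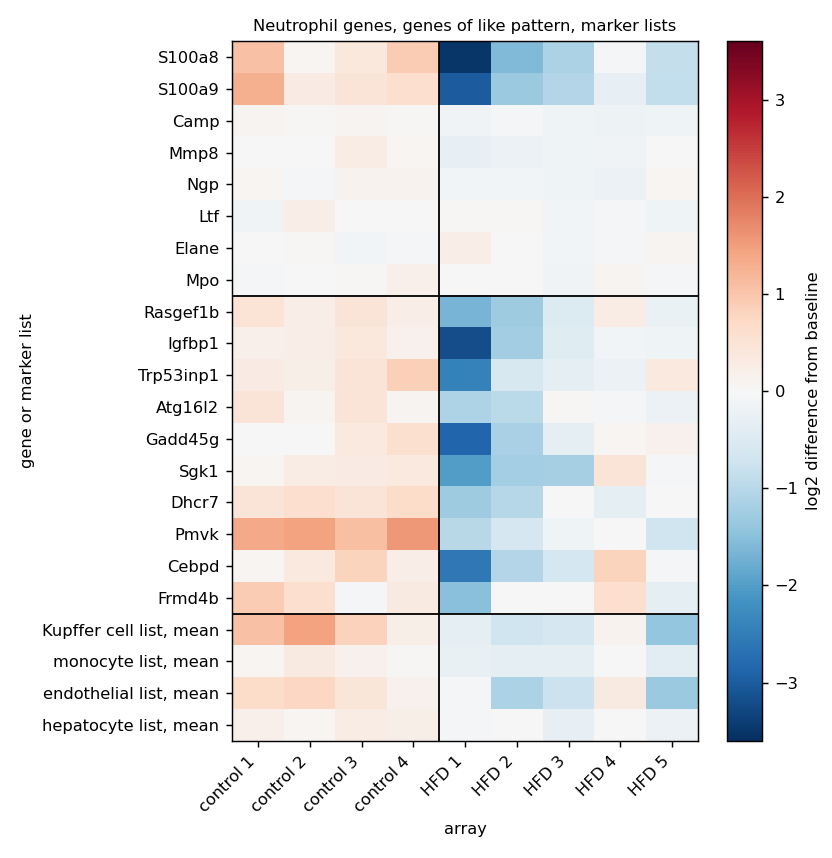
Log2 difference from the baseline (colour, from blue for lower to red for higher) on the 9 arrays for the 8 genes, the 10 genes of most similar pattern and the means of 4 marker lists. HFD replicate 1 holds the lowest value of both calgranulins, of Igfbp1 and of Cebpd, whereas the Kupffer cell and endothelial means are lowest in HFD replicate 5, and the granule genes are near 0 throughout.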

How the data were processed

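Liver RNA from 9 arrays was compared, 4 control and 5 HFD, numbered in the order of deposition, which pairs none. The deposited log2 values entered unchanged. According to the design text, the authors ran RMA with quantile normalization and then expressed every probe set relative to its all-sample median. RMA is also the tool listed in the submitters' processing notes, with no version. The log base is not given in the sources used here and was read as log2 from RMA's output and the values. In 92.8% of probe sets 2 middle values mirrored each other around 0 (within 1e-05), which places that median between 2 arrays of an even number of arrays. The arrays given here number 9, so that the median was not taken over exactly these. In control replicate 2 and HFD replicate 4, S100a8 stood at 0.0814 and -0.0814 and S100a9 at 0.2835 and -0.2835. Centring leaves differences between groups as they were, and dim probe sets could not be filtered out.

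Of 41842 probe sets 60 control probe sets were left out, and 32801 had 1 gene symbol (862 several, 8119 none). For genes with several, the probe set with the largest SD over all 9 arrays stood for the gene, a choice that favours larger differences. HFD was tested against control with limma 3.58.1 in R 4.3.3 (lmFit, eBayes, two-sided, Benjamini-Hochberg over 17514 genes, threshold 0.05). Correlations used exact permutation (two-sided, all 362880 orders of 9 arrays, or 2880 orders within groups), adjusted over 13 pairs. The scripts were tested on simulated data.

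The 8 genes and the 17 lists were chosen with earlier results of these data known. Genes named are the 8, the 4 genes of each pathway list and the 2 of each cell type list with the lowest p, and the 10 genes most correlated with the calgranulin mean (SD at least 0.3, clone names left out). Others are named as chosen after their values were seen, or as S100 genes near S100a8. List counts are over the measured members, and further members are not analysed here. Alternatives were array medians subtracted, a further quantile normalization, averaged or separate probe sets, leaving out the 25% least variable genes, robust eBayes, array weights, stricter thresholds and leaving out each array, with HFD replicate 5 and control replicate 1 left out together added after seeing the data. Promoter windows came from RefSeq (GRCm38.p6), in which all 8 genes were found. The number of arrays limits the precision.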

Additional observations from a re-analysis of the deposited data

Results flagged for a closer look

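Single arrays were compared with the rest of their group for the 62 genes named by rule, 124 groups in all, and 4 held an array far from the others, where chance alone marks about 1 group in 20. None of these was a calgranulin or one of the 6 granule genes. Ms4a3 stood at 0.38 in control replicate 4, above the other controls. S100a16 stood at 0.0193 in control replicate 4, above the other controls. Irf8 stood at 0.24 in HFD replicate 4, above the other HFD arrays. Csf3 stood at -0.20 in control replicate 1, below the other controls.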

How the results depend on the processing

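The differences of S100a8 and S100a9 kept their sign under all 17 alternatives, from -2.38 to -1.53 for S100a8 (called in 5, counting settings and arrays left out) and from -2.23 to -1.55 for S100a9. Of the 8 genes, 2 were called after a further quantile normalization and with array weights. Leaving out the 25% least variable genes removed 5 granule genes, and 2 of the 3 genes still tested were called. The count was 0 at an adjusted p under 0.01 and again 0 when HFD replicate 5 and control replicate 1 were both left out. Over arrays left out one at a time it ranged from 0 to 2. Over all genes 5.24% were called, with 245 genes at an adjusted p under 0.01, 596 at 1.5-fold or more, and 385 to 996 with 1 array left out. The Ltf difference changed sign with 1 array left out (from -0.12 to 0.0018). Of the 13 correlations 1 passed, against 3 by Spearman's rho, 4 after a further quantile normalization and 1 to 3 with 1 array left out, the additions being S100a8 and S100a9 with Mmp8 and, after quantile normalization, S100a9 with Camp. Inside the groups the sign turned for S100a8 with Camp (-0.257) and Ngp (-0.022) and for S100a9 with Camp (-0.169) and Ngp (-0.064). The pairs with Ltf turned without the 2 farthest arrays (0.182 for S100a8 and 0.405 for S100a9) and with 1 array left out (-0.376 to 0.066 and -0.362 to 0.171). The cause of these changes was not tested. No paired analysis was possible because the labels give no replicate number or pairing.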
